A study of Mus musculus with 20 samples.

Results

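Amino acid catabolism enzymes in the liver and kidney of mice given a cocktail of 7 small molecules (7c) are described here as a set of 9 named genes: Tat, Hpd, Hgd and Fah of tyrosine breakdown, Hal, Uroc1 and Ftcd of histidine breakdown, Tdo2 of tryptophan breakdown and Sds of serine breakdown. The genes were chosen by name, and each symbol matched 1 of the 57010 Ensembl identifiers in the count table. All 9 were measured in all 20 libraries. Tat and Sds were too low to be tested in kidney.

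The study asked whether chemicals used for partial reprogramming of cultured cells also change tissues when given to animals. The mice were 12-month-old UM-HET3 males, a cross of inbred strains in which every animal is genetically different. Subcutaneous osmotic minipumps were worn for 28 days. In the 7c group (6 mice) the pumps delivered repsox, tranylcypromine, DZNep, CHIR99021, forskolin and TTNPB at 0.1 mg/kg/day each together with valproate at 1 mg/kg/day. In the vehicle group (4 mice) they delivered only the solvent, equal volumes of DMSO and PEG300, which the 7c mice received too. Both groups wore pumps and were housed singly afterwards, and mice without a pump were not analysed here. Liver and kidney were each sequenced once per mouse.

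Excess amino acids are broken down mainly in hepatocytes, where enzymes remove the nitrogen and open the ring so that the carbon can enter energy metabolism or glucose synthesis. TAT, the tyrosine aminotransferase, HPD, HGD and FAH act in this order on tyrosine, with GSTZ1 between HGD and FAH, and end with fumarate and acetoacetate. HAL, the histidine ammonia-lyase, UROC1 and FTCD act in this order on histidine, with AMDHD1 between UROC1 and FTCD, and FTCD passes the last fragment to folate. TDO2 opens the ring of tryptophan, and SDS, the serine dehydratase, turns serine into pyruvate. Tat, Tdo2 and Sds are textbook targets of glucocorticoids, and Tat and Sds also of glucagon acting through cAMP. Fah, Hpd and Hgd are known to be active in the proximal tubule of the kidney as well.

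On GRCm39, the build of the deposited counts, all 9 are protein-coding genes (GENCODE vM39). The tyrosine genes are Tat on chr8:110717063-110726435 (plus strand), Hpd on chr5:123309870-123320817 (minus), Hgd on chr16:37400515-37452388 (plus) and Fah on chr7:84232788-84255930 (minus). The histidine genes are Hal on chr10:93324629-93355166 (plus), Uroc1 on chr6:90310266-90341740 (plus) and Ftcd on chr10:76411475-76426245 (plus). Tdo2 lies on chr3:81864248-81883509 (minus) and Sds on chr5:120614585-120621997 (plus). Hpd, Hgd, Tdo2 and Sds each overlap a gene on the opposite strand (Psmd9, the lncRNA Gm46559, Ctso, and Plbd2 with the lncRNA Gm15690). The libraries were stranded, but the strand setting of the counting is not given in the sources used here, so reads of these overlaps cannot be assigned with certainty.

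Promoter sequences are shown because the members fell into groups by how much of their liver level the kidney held, given below. RefSeq promoters (GRCm38.p6, a different build from that of the counts, 250 bases before to 50 after the start) matched 8 of the 9 members, all but Sds. The 250 bases before the start are printed for 3 members that were close to absent from kidney (Tat, chr8:109990186-109990435, plus strand; Tdo2, chr3:81975729-81975978, minus strand; Hal, chr10:93488518-93488767, plus strand), for Fah, whose difference between the tissues did not pass the test (chr7:84605943-84606192, minus strand), and for Ftcd, the member with the lowest p in kidney (chr10:76575398-76575647, plus strand). Capitals mark copies of the TATA box, the CCAAT box, the GC box and the HNF1 half-site on either strand, whose letters are spelled out in the next paragraph, and no marked copy overlaps another.
Tat: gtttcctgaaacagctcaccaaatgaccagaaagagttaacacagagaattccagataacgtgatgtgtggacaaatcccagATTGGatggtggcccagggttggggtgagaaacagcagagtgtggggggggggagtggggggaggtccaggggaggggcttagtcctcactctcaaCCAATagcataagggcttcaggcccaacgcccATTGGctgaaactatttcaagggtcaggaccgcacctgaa
Tdo2: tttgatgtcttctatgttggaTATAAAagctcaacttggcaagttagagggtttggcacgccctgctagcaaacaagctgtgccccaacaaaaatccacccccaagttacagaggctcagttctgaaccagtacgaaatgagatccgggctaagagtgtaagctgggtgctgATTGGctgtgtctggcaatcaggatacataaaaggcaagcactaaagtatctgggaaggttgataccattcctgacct
Hal: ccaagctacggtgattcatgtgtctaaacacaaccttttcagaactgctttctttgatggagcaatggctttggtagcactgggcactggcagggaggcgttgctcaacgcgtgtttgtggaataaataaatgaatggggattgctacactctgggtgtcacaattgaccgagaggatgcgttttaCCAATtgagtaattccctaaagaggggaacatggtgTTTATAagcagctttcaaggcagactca
Fah: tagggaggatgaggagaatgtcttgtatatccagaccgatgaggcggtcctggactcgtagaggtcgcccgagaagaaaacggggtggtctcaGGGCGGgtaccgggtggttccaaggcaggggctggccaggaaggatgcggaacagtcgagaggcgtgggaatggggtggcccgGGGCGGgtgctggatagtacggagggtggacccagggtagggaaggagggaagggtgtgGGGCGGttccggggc
Ftcd: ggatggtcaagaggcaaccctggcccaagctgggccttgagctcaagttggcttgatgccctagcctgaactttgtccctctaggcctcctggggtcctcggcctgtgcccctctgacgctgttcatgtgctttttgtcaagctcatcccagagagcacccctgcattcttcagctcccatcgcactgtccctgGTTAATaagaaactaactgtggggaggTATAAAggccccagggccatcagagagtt

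In the whole windows of 300 bases, the TATA box TATAAA was found in 4 of the 8 members (Tdo2, Hal, Ftcd and Hgd), beside 13.6% of the 32851 promoters of the table. Relative to the start, its first base lay at -28 in Hal and -29 in Ftcd, and farther away, at -139 in Hgd and -229 in Tdo2. The CCAAT box, CCAAT, was found in 5 of the 8 (37.4% of all promoters), with 3 copies in Tat. The GC box GGGCGG was found in Fah and Hpd (35.7% of all promoters), with 5 copies in Fah, of which 1 crosses the start and 1 lies beyond it, so that neither is marked in the printed stretch. GTTAAT, the half-site of the liver factor HNF1, occurred in Ftcd alone (7.10% of all promoters). The D-box TTATGTAA, the cAMP response element TGACGTCA and the glucocorticoid receptor half-site TGTTCT occurred in none of the 8 windows (0.938%, 1.79% and 18.97% of all promoters). The Fah window held 64.3% G and C with 19 CpG pairs, against a median of 52.7% and 7 over all promoters. Uroc1 held no CpG pair in its window. These are matches of letters, not sites of binding.

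The liver libraries held 28383359 to 34153084 counts on genes and the kidney libraries 27855849 to 64872451, and every 7c liver library was smaller than every vehicle liver library. The tissues carried their defining markers, with 15 hepatocyte markers summing to between 113442 and 145151 CPM (normalised counts scaled to a library of 1000000) in liver and 10 proximal tubule markers summing to between 38838 and 74987 in kidney, led by Alb and Kap. In liver the proximal tubule markers summed to at most 1.70 CPM. In kidney the hepatocyte markers summed to between 139 and 387 CPM, led by Ttr. Of the other lists, skeletal muscle markers reached 638 CPM in the liver of 7c replicate 6 (Acta1) and at most 0.0989 CPM in the vehicle livers. Erythroid markers summed to 308 to 2257 CPM in kidney (Hba-a1), and immune markers to at most 140 CPM in liver (Clec4f). In bulk tissue, fewer cells of a type and less RNA per cell cannot be told apart.

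Liver levels were compared between genes as CPM per kilobase of exon, on a scale shared by both tissues. In the 4 vehicle livers Hpd was highest with 1181 ± 206 (SD, n = 4), followed by Tat with 868 ± 242 and Tdo2 with 544 ± 47.1. Ftcd (227 ± 14.97), Hgd (190 ± 22.4), Uroc1 (168 ± 31.1) and Fah (152 ± 13.7) came next. Hal (113 ± 26.7) and Sds (77.1 ± 16.03) were lowest. The ranges of neighbours in this order overlapped from Hpd to Tat, from Ftcd to Hgd, from Hgd to Uroc1, from Uroc1 to Fah, from Fah to Hal and from Hal to Sds. Tdo2 did not overlap Tat, its neighbour above (477 to 588 against 619 to 1193), or Ftcd, its neighbour below (208 to 242). The gap to Tat came with the division by length. Before it Tdo2 and Tat overlapped, at 1923 to 2370 and 1493 to 2877 CPM. The tyrosine pathway thus held both the highest and some of the lower levels, with its first steps above its last ones.

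In liver, no difference between 7c and vehicle was detected for any of the 9 enzymes, and the groups overlapped in every one (over all genes tested in liver, 0.713% did not overlap). Values are CPM normalised within liver. Tat, the first enzyme of the pathway, ranged from 1299 to 2185 in the 7c livers with a median of 1685, and stood at 1718, 1173, 2369 and 1547 in the vehicle livers. The highest and the lowest liver of all 10 were both vehicle. Tat differed by 0.029 on the log2 scale (SE 0.193).

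Hpd, the dioxygenase that follows it, ranged from 2325 to 2851 with a median of 2673 in the 7c livers and measured 2392, 2916, 2751 and 2007 in the vehicle livers. Vehicle replicate 4 was the lowest of all livers. For Hgd, which opens the ring of homogentisate, the 7c livers ranged from 548 to 708 (median 653) and the vehicle livers measured 654, 699, 817 and 624. Fah, the hydrolase that completes the pathway and whose loss causes tyrosinemia, ranged from 596 to 742 (median 654) and measured 668, 646, 565 and 601. In all 3 genes the groups overlapped.

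Of the histidine genes, Hal ranged from 379 to 576 (median 442) in the 7c livers and measured 388, 651, 521 and 465 in the vehicle livers. Uroc1, the urocanate hydratase, ranged from 495 to 701 (median 557) and measured 623, 642, 609 and 428. Ftcd, which closes the pathway, ranged from 615 to 761 (median 704) and measured 709, 708, 637 and 687. Ftcd varied least of the 9 across livers. Its SD was 0.102 on the log2 scale over 10 livers, against a median of 0.301 over all genes tested.

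Tdo2 ranged from 1198 to 2129 (median 1782) in the 7c livers and measured 1915, 1762, 1836 and 1582 in the vehicle livers. The lowest and the highest liver were both 7c. Sds ranged from 65.9 to 155 (median 121) in the 7c livers and measured 105, 86.9, 147 and 127 in the vehicle livers. Replicates 1 and 2 of 7c, at 65.9 and 66.7, lay below every other liver.

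By edgeR's quasi-likelihood test with Benjamini-Hochberg adjustment over 15012 genes, 0 of the 9 members passed an adjusted p of 0.05 in liver, where 0.00666% of all genes did. At an unadjusted p under 0.05 there were also 0 of 9 (3.76% of all genes), and 0 were called by DESeq2 (0.04% of all genes). The log2 fold changes lay between -0.13 (Hal, SE 0.143) and 0.10 (Fah, SE 0.0951), and their median was 0.0017, against 0.0017 over all genes. The smallest p was that of Hgd, at 0.268 before and 1.00 after adjustment. The 95% intervals were narrowest for Ftcd, from 0.895 to 1.16 times the vehicle level, and widest for Sds, from 0.675 to 1.41 times. All 9 intervals included no change, so changes within their bounds cannot be told from none with 6 and 4 mice. The size of change that could pass over all genes was not tested.

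**Figure D1:**
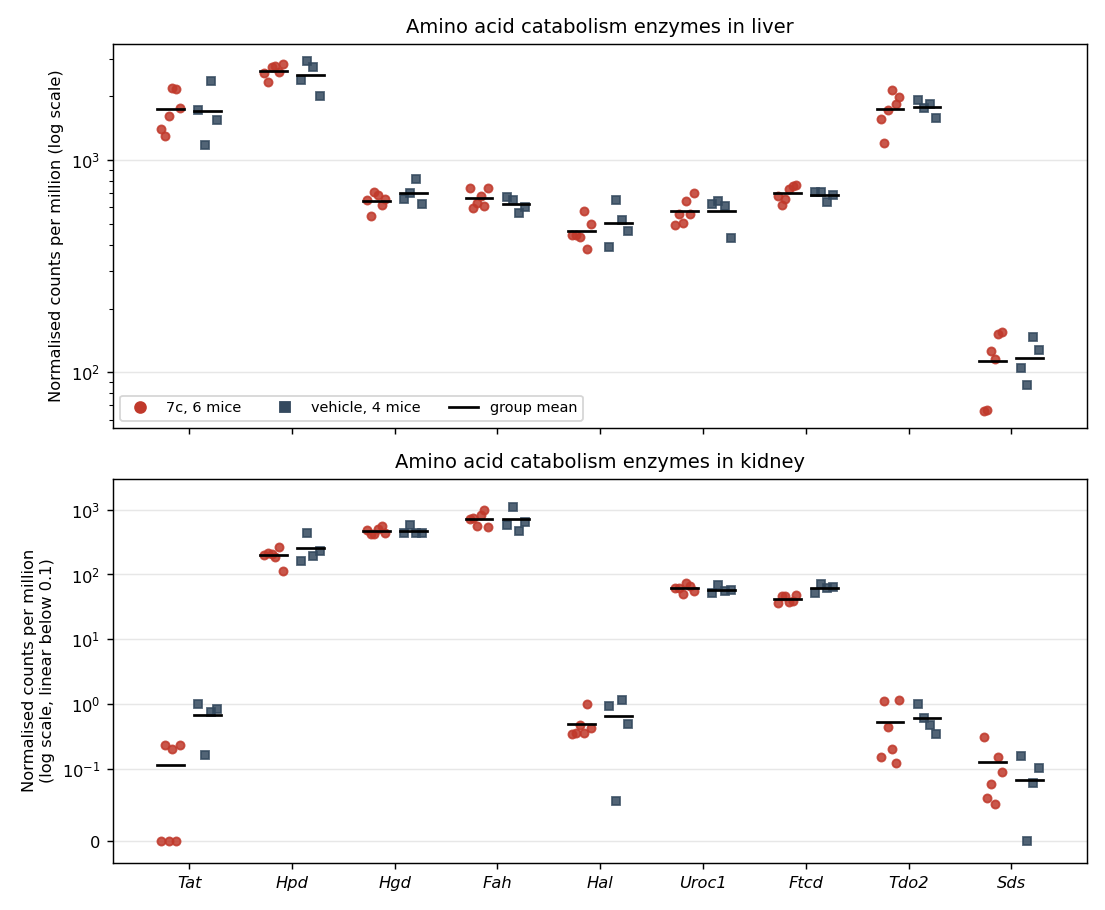
Normalised CPM of the 9 enzymes in each liver (top) and kidney (bottom) library, 6 7c mice (circles) and 4 vehicle mice (squares), with group means as bars on log axes (linear below 0.1 in kidney). The groups overlap for every member in liver, and in kidney Ftcd is the only member whose 6 7c libraries (36.2 to 48.4) all lie below the 4 vehicle libraries (52.5 to 72.2).

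In kidney, Ftcd was lower in all 6 mice given 7c, and no member passed the test across all genes. Ftcd ranged from 36.2 to 48.4 CPM with a median of 42.9 in the 7c kidneys and measured 52.5, 72.2, 61.1 and 64.0 in the vehicle kidneys, so the groups did not overlap. Over all genes tested in kidney, 0.406% separated completely in this direction. The group means were 42.6 ± 5.21 (SD, n = 6) and 62.5 ± 8.11 (SD, n = 4). The log2 fold change was -0.55 (SE 0.124), with an interval of 0.566 to 0.821 times the vehicle level. A two-sided exact permutation test over the 210 splits of the 10 kidneys gave p = 0.00476, the smallest it can give.

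Ftcd did not pass when all 17749 genes of kidney were taken into account. Its p was 0.000703 before adjustment, and its adjusted p was 0.997 by edgeR's quasi-likelihood test, 0.0604 by DESeq2 and between those values under every other alternative except some fits without 1 library, where it reached 1.00. The difference kept its sign under all of them, from -0.63 to -0.47. In kidney 0% of all genes passed by that edgeR test, and 2.61% had an unadjusted p under 0.05. Of the 7 members tested, Ftcd alone had an unadjusted p under 0.05. Over the same 17749 genes DESeq2 called 18 (0.101%), edgeR's likelihood ratio test 14 and a fit of both tissues together 18. DESeq2 called 0 members.

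The remaining tested members of kidney overlapped between the groups. Hpd ranged from 114 to 261 (median 202) in the 7c kidneys and measured 161, 428, 194 and 227 in the vehicle kidneys. Its log2 fold change of -0.36 (SE 0.265) rested on vehicle replicate 2, and without that library it was 0.021. Fah ranged from 530 to 985 (median 725) and measured 585, 1107, 474 and 649. Vehicle replicate 2 was again the highest.

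Hgd ranged from 423 to 551 (median 462) in the 7c kidneys and measured 439, 579, 429 and 432 in the vehicle kidneys. Uroc1 ranged from 50.2 to 73.3 (median 61.8) and measured 52.7, 67.7, 55.6 and 57.2. Vehicle replicate 2 was the highest vehicle kidney in all 5 members that were above 30 CPM in every kidney, Ftcd included. The log2 fold changes of Hgd (0.0049), Fah (0.040) and Uroc1 (0.079) were smaller than their standard errors.

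The members that are close to liver-only gave a handful of reads in kidney. Tat had 0, 8, 0, 8, 0 and 10 counts in the 7c kidneys and 38, 6, 28 and 24 in the vehicle kidneys. As CPM this was 0.114 ± 0.126 (SD, n = 6) against 0.686 ± 0.361 (SD, n = 4), with 3 of 6 7c kidneys below every vehicle kidney. The two-sided exact permutation test gave p = 0.0381 for Tat, unadjusted, 1 of 18 such values computed for the members over both tissues. A count of 0 allows up to 3 reads in a library, a limit that covers counting error only.

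Hal had 12 to 32 counts in the 7c kidneys and 2 to 44 in the vehicle kidneys, with a log2 fold change of -0.43 (SE 0.606). Tdo2 had 4 to 49 and 10 to 38, with -0.18 (SE 0.660). Sds had 2 to 21 counts in the 7c kidneys and 0 to 6 in the vehicle kidneys. Intervals of Hal and Tdo2 reached from 0.297 to 1.84 and from 0.327 to 2.38 times the vehicle level. Changes within these bounds cannot be told from none at this depth.

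Markers of hepatocytes were measured in the same kidneys. Of 15 hepatocyte markers, all tested, 5 were lower in all 6 7c kidneys than in every vehicle kidney (0.406% of all kidney genes). An unadjusted p under 0.05 was found for 9 (2.61% of all kidney genes). After adjustment 0 passed in edgeR's quasi-likelihood test and 5 in DESeq2 (0.101% of all kidney genes). The median log2 fold change of the 15 markers was -1.58. Their summed level was 139 to 373 CPM in the 7c kidneys and 263 to 387 in the vehicle kidneys. Alb, the plasma albumin, measured 8.69 to 30.7 CPM and 22.8 to 44.0 CPM. Relative to the mean of all 10 livers of both treatments, Alb in kidney stood at 0.0172% in 7c and 0.0362% in vehicle mice, and Tat at 0.00430% and 0.0255%. Ftcd in kidney stood at 3.95% and 5.76% of its mean over the same 10 livers. The highest hepatocyte marker by this measure, Ttr, stood at 1.95% and 2.04%, and reached 3.34% in a single 7c kidney and 2.56% in a single vehicle kidney. The part of liver RNA in the kidney values of Tat and Ftcd was not tested.

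Marker lists of other cells were measured in the same libraries. Adipocyte markers, led by Fabp4, summed to between 62.7 and 171 CPM in the 7c kidneys and between 40.9 and 51.7 CPM in the vehicle kidneys, so that the groups did not overlap. All 7 were higher at an unadjusted p under 0.05 (2.61% of all kidney genes in either direction), with a median log2 fold change of 2.14. After adjustment 0 passed in edgeR's quasi-likelihood test, where 0% of all kidney genes did. The paper's own edgeR analysis listed Thrsp and Cidec, both among these markers, as higher in kidney at an adjusted p under 0.05. Proximal tubule markers, the cells in which kidney amino acid enzymes are known to be made, summed to 40500 to 74987 CPM in the 7c kidneys and 38838 to 67224 in the vehicle kidneys, and 0 of 10 had an unadjusted p under 0.05. The other nephron markers, led by Umod, summed to 3455 to 4768 and 3494 to 4182 CPM. Their part in the lower Ftcd was not tested.

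**Figure D2:**
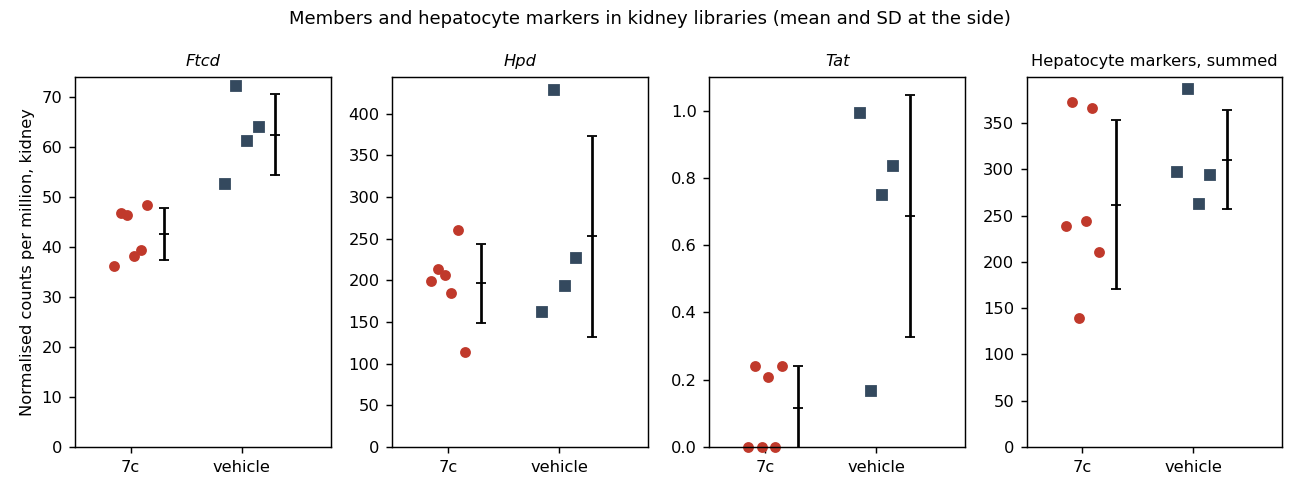
Normalised CPM of Ftcd, Hpd and Tat and the sum of 15 hepatocyte markers in each kidney library, 6 7c mice (circles) and 4 vehicle mice (squares), with the mean and SD beside the points on axes that start at 0. Ftcd separates the groups, Hpd is set apart by 1 vehicle kidney at 428, and Tat and the marker sum (139 to 373 against 263 to 387) overlap. Ttr leads that sum, and 5 of the 15 markers taken singly separate the groups.

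The difference between the tissues in the response to 7c was tested as a treatment by tissue interaction over the 14163 genes that could be tested in liver as well as in kidney. Of the 7 members tested, 0 passed (0.00706% of all genes) and 1, Ftcd, had an unadjusted p under 0.05 (2.49% of all genes). Its response was 0.58 higher in liver than in kidney on the log2 scale (SE 0.161), with an adjusted p of 0.825 by edgeR (0.00175 unadjusted). Under DESeq2, which called 0.113% of all genes, the adjusted p was 0.0472, the only alternative under which a member passed. The others ran from -0.13 (Hgd) to 0.43 (Hpd, SE 0.323). The tissues came from the same mice, so the 2 sides of this contrast are not independent, and the labels do not say which liver and kidney belong together.

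**Figure D3:**
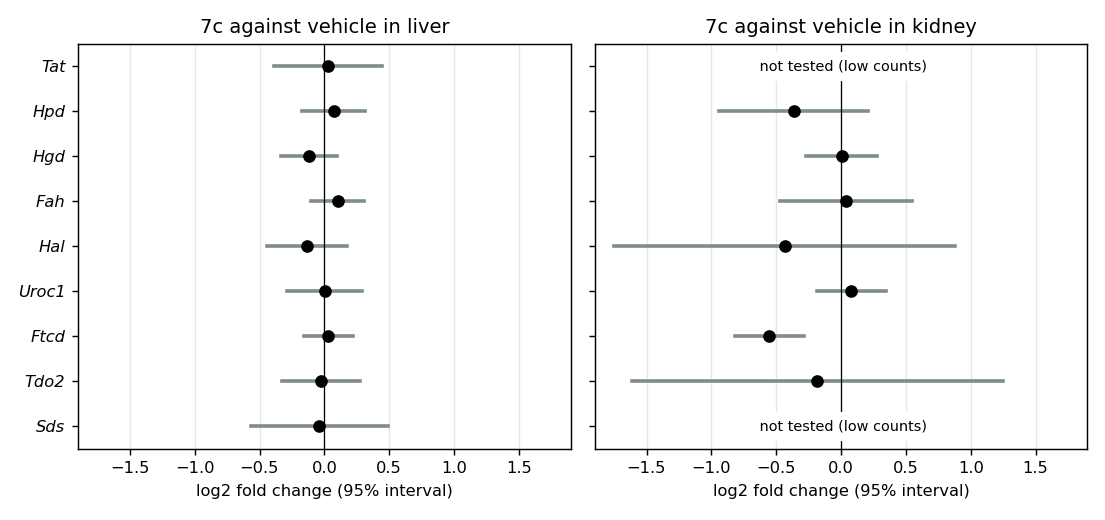
Log2 fold change of each enzyme, 7c against vehicle, with its 95% interval from edgeR, in liver (left) and kidney (right). All 9 intervals in liver include 0, and in kidney that of Ftcd (-0.82 to -0.28) is the only one of 7 that does not, before adjustment over 17749 genes.

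The other enzymes of amino acid breakdown, a list of 83 genes without the members, gave no call either. In liver 79 were tested, 0 passed in edgeR or DESeq2, 5 had an unadjusted p under 0.05 and the median log2 fold change was 0.014. The lowest p belonged to Prodh, which oxidises proline, with 236 to 292 CPM in the 7c livers and 173 to 229 in the vehicle livers, a log2 fold change of 0.35 (SE 0.102) and an adjusted p of 1.00 by edgeR (0.00463 unadjusted). All 6 7c livers were above all 4 vehicle livers in Prodh. Gpt2, the mitochondrial alanine aminotransferase, followed with 0.44 (SE 0.167), from 324 to 579 CPM against 274 to 378. Aldh1l1, an enzyme of folate metabolism, followed with 0.23 (SE 0.0898), from 1456 to 1794 CPM against 1315 to 1494.

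In kidney 80 of these genes were tested, 0 passed in edgeR or DESeq2, 0 had an unadjusted p under 0.05 and the median was -0.056. The lowest p values were those of Asrgl1 (0.38, SE 0.183), Bhmt (-0.51, SE 0.253) and Mat1a (-1.51, SE 0.772). Bhmt, a liver enzyme that remethylates homocysteine, measured 6.78 to 13.4 CPM in the 7c kidneys and 9.65 to 19.5 in the vehicle kidneys. Mat1a, the liver methionine adenosyltransferase, stayed below 1.4 CPM in every kidney. In the interaction 78 were tested, 0 passed in edgeR or DESeq2 and 3 had an unadjusted p under 0.05, all of them higher in liver than in kidney (Mat1a 1.60, Bhmt 0.78 and Gpt2 0.49). Amdhd1, the step before Ftcd, gave -0.95 in kidney (SE 1.09), and Afmid and Kmo, the steps after Tdo2, gave -0.10 (SE 0.150) and -0.22 (SE 0.118). Of the lists of hormone response (10 genes), clock (9), portal (8) and central (8) hepatocyte genes, 0 genes passed in either tissue by edgeR, and 1, 2, 1 and 1 in liver and 0, 0, 1 and 1 in kidney had an unadjusted p under 0.05.

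Between vehicle liver and vehicle kidney, 8 of the 9 members were higher in liver, as were 26.8% of all 18598 genes. They fell into 3 groups. Tdo2 (log2 fold change 12.11, SE 0.609), Tat (11.90, SE 0.618), Sds (10.97, SE 0.505) and Hal (10.18, SE 0.489) were at least 573 times as high in liver by the lower bound of each 95% interval, with at most 44 counts in any vehicle kidney. Sds had 0 counts in 1 vehicle kidney, so its fold rests on few reads.

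Ftcd (4.09, SE 0.143), Hpd (3.94, SE 0.281) and Uroc1 (3.93, SE 0.174) were between 15.3 and 16.98 times as high in liver. Hgd was 2.30 times as high (log2 1.20, SE 0.136, adjusted p = 1.11e-07 by edgeR). For Fah the difference did not pass, with a log2 fold change of 0.45 (SE 0.217) and an adjusted p of 0.0831 by edgeR. Fah was the member in which the call depended on the fit. Without vehicle replicate 2, whose kidney had the highest Fah, the difference was 0.73 with an adjusted p of 0.00400. Limma-voom gave an adjusted p of 0.0317, and a replicate block gave 0.52 with 0.0428. With total counts in place of TMM the direction turned (-0.13, adjusted p = 0.534). That scaling moved the median of all genes by -0.60, and the liver excess of the other 8 members held under it.

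The kidney levels were also computed in percent of the mean of all 10 livers, 1 reference for both treatments. Fah stood at 72.1% in 7c and 69.6% in vehicle mice, Hgd at 45.7% and 45.2%, Uroc1 at 6.89% and 6.47% and Hpd at 4.89% and 6.24%. The mean levels of Hal, Sds, Tdo2 and Tat stayed below 0.1% in both. Along each pathway the step kept by the kidney was a late one for tyrosine, where Tat was close to absent and Hgd and Fah were present. For histidine, Hal was close to absent and Uroc1 and Ftcd were present at lower levels.

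Neighbouring enzymes gave the same mixture. Gstz1, which acts between Hgd and Fah, differed by 1.67 (SE 0.118). Amdhd1, which acts between Uroc1 and Ftcd, differed by 8.78 (SE 0.814) and was at 0.83 ± 0.812 CPM in vehicle kidney (SD, n = 4, scale of both tissues), so that this step was close to absent from a tissue that held both of its flanking enzymes. Afmid and Kmo, which follow Tdo2, differed by 0.88 and 1.58, and Sdsl, a relative of Sds, by 1.63. All 5 passed the test.

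Of the 83 other enzymes 81 were tested between tissues, of which 55 were higher and 13 lower in liver, against 26.8% higher and 31% lower over all genes, with a median of 0.93 against -0.11. The largest liver excess was in Mat1a (12.18), Agxt, which detoxifies glyoxylate (11.61), and Gls2, the liver glutaminase (10.28). At the other end Dao, the D-amino acid oxidase, and Bcat1, a branched-chain aminotransferase, had 0 counts in every liver and 470 ± 80.8 and 29.5 ± 6.75 CPM in vehicle kidney. Taking 3 counts per library as the limit of a count of 0, Dao was at least 4253-fold and Bcat1 at least 267-fold higher in kidney. Hdc, the histidine decarboxylase, an alternative fate of histidine, differed by -5.75 on the log2 scale, at 4.25 ± 1.75 against 229 ± 63.6 CPM. The branched-chain list was divided, with 8 of 21 higher and 7 lower in liver, whereas 6 of 6 glutamate, alanine and asparagine genes and 9 of 10 methionine, cysteine and choline genes were higher.

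**Figure D4:**
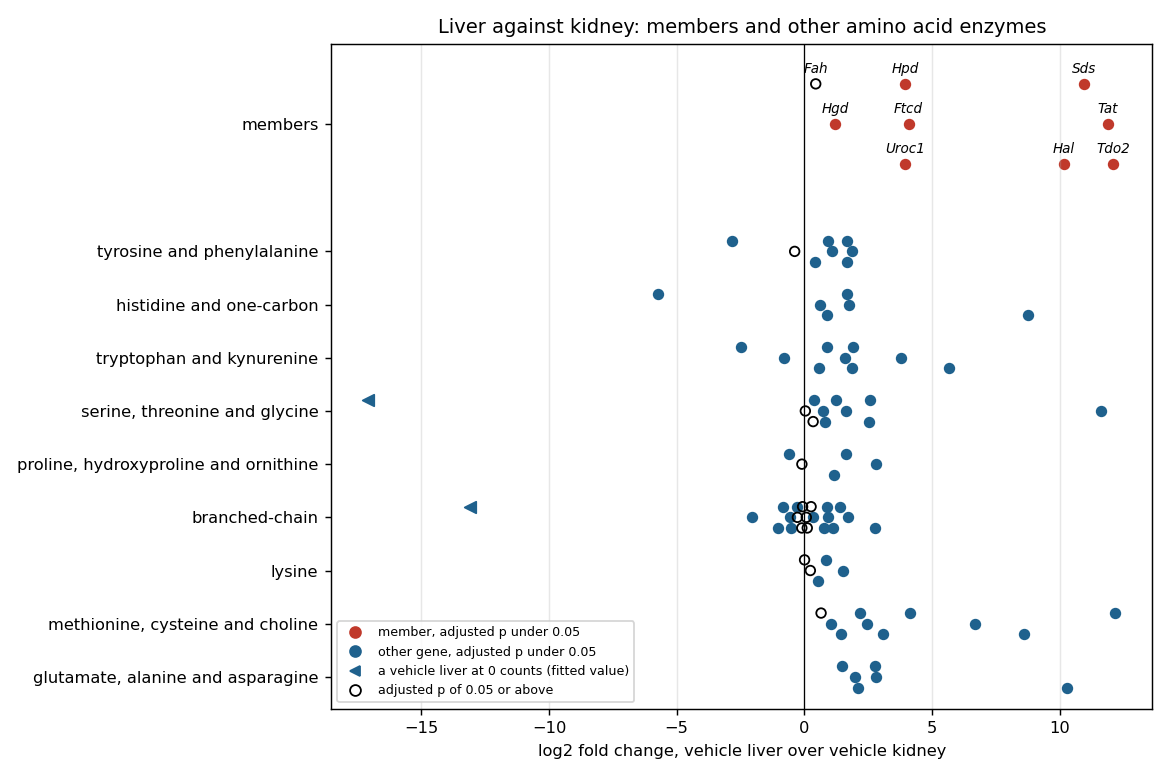
Log2 fold change of vehicle liver over vehicle kidney for the 9 members (top row, red, named) and for the 81 other amino acid enzymes tested, by pathway, with filled symbols for an adjusted p under 0.05 by edgeR. The members fall near 0 to 1 (Fah, Hgd), near 4 (Uroc1, Hpd, Ftcd) and from 10 to 12 (Hal, Sds, Tat, Tdo2), and triangles mark Dao and Bcat1, which had 0 counts in liver.

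Among the 10 livers the members varied unequally. Over all 10, Sds had an SD of 0.461 on the log2 scale and Tat 0.338. Hal, Tdo2 and Uroc1 had between 0.216 and 0.244, and Hpd, Hgd, Fah and Ftcd at most 0.165. Ranks were taken on the SD pooled within the treatment groups, 0.486 for Sds, 0.357 for Tat and 0.107 for Ftcd. Sds ranked above 96.1% of the genes of similar expression (10 equal bins) and 68.9% of all genes tested. Tat ranked above 91.3% and 57.5%, and Ftcd above 15.2% and 4.14%. The glucocorticoid and cAMP targets of the set were thus, apart from Tdo2, its most variable members.

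Replicates 4 to 6 of 7c differed from replicates 1 to 3 in genes of the daily clock. Dbp, an output gene of the clock, measured 2.06, 0.964 and 0.266 CPM in livers 1 to 3 of 7c and 23.9, 46.4 and 92.9 in livers 4 to 6. In the vehicle livers it lay between 3.53 and 5.14. Bmal1, a core clock gene with the opposite phase, measured 31.3, 35.3 and 39.9 in livers 1 to 3 and 18.5, 11.1 and 4.93 in livers 4 to 6.

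The kidneys of the same replicate numbers were divided alike, with Dbp at 16.3, 11.7 and 6.43 CPM in replicates 1 to 3 of 7c and 93.7, 116 and 116 in replicates 4 to 6. Livers 1 to 3 of 7c had Tat at 1395, 1299 and 1614 CPM and livers 4 to 6 at 2185, 2168 and 1756. Tdo2 stood at 1566, 1198 and 1720 in the former and 2129, 1844 and 1983 in the latter. In both genes livers 4 to 6 were all above livers 1 to 3. The same held for Ftcd (615 to 675 against 734 to 761) and Uroc1 (495 to 555 against 560 to 701), and not for Hpd, Hgd, Fah, Hal or Sds, which made 4 of 9 members beside 7.11% of the 15012 genes tested in liver. In kidney 0 of the 9 members divided the 7c replicates in this way (5.58% of all genes tested there), and Ftcd measured 36.2, 46.9 and 46.4 in replicates 1 to 3 and 38.2, 39.4 and 48.4 in replicates 4 to 6. The replicates were set side by side after their values were seen, so this is a description. The times at which the tissues were taken are not given in the sources used here, and the part of the clock in these values was not tested.

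**Figure D5:**
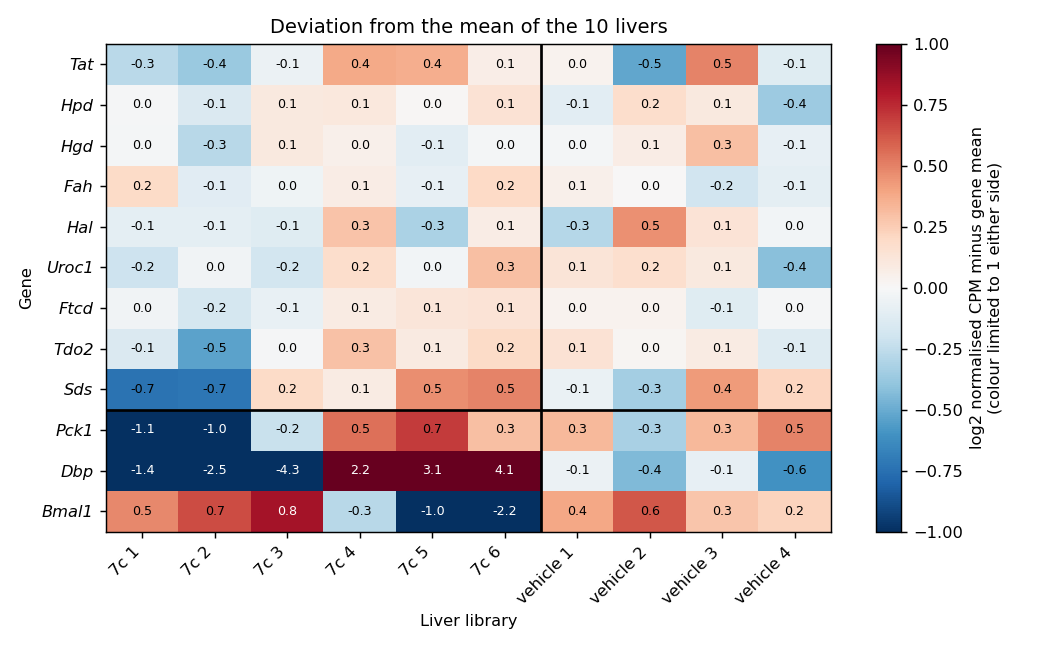
Deviation of each enzyme, and of Pck1, Dbp and Bmal1, from its mean over the 10 livers on the log2 scale (red higher, blue lower, colour limited to 1 either side, values printed). Sds and Tat vary most among the enzymes and are lowest or near lowest in 7c replicates 1 and 2, where Pck1 is lowest, and Dbp and Bmal1 set 7c replicates 4 to 6 apart.

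Whether the members varied together was computed for all 36 pairs over the 10 livers. After Benjamini-Hochberg adjustment 0 of 36 passed in the permutation tests of Pearson's r or Spearman's rho, with a lowest adjusted p of 0.257 and 0.187. The highest r were those of Tat and Sds (r = 0.746, permutation p = 0.0143, rho = 0.685, permutation p = 0.0346, n = 10) and of Ftcd and Tdo2 (r = 0.743, permutation p = 0.00999, rho = 0.782, permutation p = 0.0104, n = 10), and the highest rho was that of Uroc1 and Tdo2 (rho = 0.818, permutation p = 0.00588, r = 0.541, permutation p = 0.106, n = 10). Without the 2 livers farthest from the median of the first gene, r was 0.725, 0.737 and 0.507 for these pairs in turn. Within the 6 7c livers r was 0.787, 0.887 and 0.547, and within the 4 vehicle livers 0.873, -0.030 and 0.879.

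Sds, as the most variable member, was set beside 34 genes of hormone response, clock and liver zonation, of which 0 passed adjustment in the permutation tests. Pck1, which starts glucose synthesis and responds to glucagon, came first with r = 0.879 (permutation p = 0.00202, adjusted p = 0.0687, n = 10) and rho = 0.636 (permutation p = 0.0544). Pck1 measured 744 and 787 CPM in the 2 7c livers with the lowest Sds and 1286 or more elsewhere. Without the 2 livers farthest from the median of Sds, r fell to 0.565, so the relation rests in large part on those livers. Within the 6 7c livers r was 0.910.

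Of the clock genes Npas2 came first with r = -0.781 (permutation p = 0.00628, adjusted p = 0.107, n = 10) and rho = -0.782 (permutation p = 0.0109), followed by Tef with 0.658, Bmal1 with -0.597, Per3 with 0.570 and Dbp with 0.543. Cyp2f2 and Glul, markers of the portal and the central end of the lobule, gave 0.098 and -0.40, and the central gene with the strongest relation, Slc1a2, gave -0.41. Over all genes tested in liver the 3 most like Sds were Lrrc20 (r = 0.906), Atp1b1 (0.890) and Paics (0.890), chosen for their r over the same 10 livers and therefore a description.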

How the data were processed

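Liver and kidney RNA of 10 mice was analysed. The authors aligned reads to GRCm39 with STAR 2.7.11b and counted them per gene with featureCounts 2.0.6, per the paper's methods and the labels, and the deposited values are raw counts. All 20 columns were mapped by their labels. Strand setting, annotation release and treatment of reads with several positions are not given in the sources used here.

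Genes reaching 10 counts in 50% or more of a tissue's libraries were tested with edgeR 4.0.16 (TMM, quasi-likelihood F-test, R 4.3.3) with treatment as the only term, and p-values were adjusted by Benjamini-Hochberg over all genes tested, with a threshold of 0.05. The tissue comparison and the interaction were fitted on all 20 libraries, the interaction on genes that passed in both tissues. Each library came from 1 mouse, and p-values measure the spread between these libraries. Values are TMM-normalised CPM. Exact permutation tests were two-sided on the absolute difference of means. Correlations on log2 CPM used 100000 permutations. Alternatives were DESeq2 1.42.0, limma-voom (limma 3.58.1), other scalings and filters, a replicate block and each library left out. Fits were tested on simulated data.

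Named were all 9 members, other enzymes past the threshold or with the 3 lowest p in each treatment comparison, the 3 highest and 3 lowest of the tissue comparison, the neighbouring steps, and the leading context and marker genes. The values of 1 neighbouring gene are not reported here. The members and lists were chosen with earlier results of these data known.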

Additional observations from a re-analysis of the deposited data

Results flagged for a closer look

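Of 32 groups of 4 or 6 libraries examined for a library far from the rest, 3 held one, and chance alone marks about 1 in 20 groups. Uroc1 in vehicle liver was lowest in replicate 4, at 428 CPM against 609 to 642 in the other 3. Hgd in vehicle kidney was highest in replicate 2, at 579 CPM against 429 to 439, the kidney in which Hpd and Fah were highest too. Hal in 7c kidney was highest in replicate 5, at 1.00 CPM against 0.348 to 0.481 in the other 5.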

How the results depend on the processing

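No member passed in liver or kidney under any alternative run (other scalings, filters and tools, a replicate block, 1 library left out). In the interaction 1 member, Ftcd, passed under DESeq2. Between tissues 8 members passed, and 8 to 9 with 1 library left out, Fah being the ninth. No pair of members passed under any alternative. Leaving out 1 library moved small differences across 0 without a call. In liver the log2 fold changes ranged from -0.11 to 0.24 for Tat, -0.023 to 0.15 for Hpd, -0.24 to 0.015 for Hal, -0.12 to 0.061 for Uroc1, 0 to 0.066 for Ftcd, -0.093 to 0.061 for Tdo2 and -0.15 to 0.098 for Sds. In kidney they ranged from -0.53 to 0.021 for Hpd, -0.044 to 0.13 for Hgd, -0.11 to 0.35 for Fah and -0.58 to 0.16 for Tdo2. In the interaction they ranged from -0.21 to 0.19 for Fah, -0.078 to 0.90 for Hal, -0.20 to 0.0006 for Uroc1 and -0.11 to 0.61 for Tdo2. Limma-voom gave 0.0056 for Hal in kidney and -0.13 in the interaction. Total counts without TMM, an alternative chosen after seeing the data, gave -0.13 for Fah between tissues and -0.0071 in the interaction. The cause was not tested.

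Replicate numbers did not pair 7c with vehicle mice. Livers and kidneys of the same number deviated together weakly, with correlations of 0.0116 to 0.26, above 0.1 in 7 of 10, and 8 of 10 livers correlated best with the kidney of their own number. With the replicate block 9 members passed between tissues and 0 elsewhere, and the block turned Tat (-0.053), Uroc1 (-0.060) and Ftcd (-0.033) in liver and Hgd (-0.019) in kidney.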
